A study of Homo sapiens with 4 samples.

Results

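Box C/D small nucleolar RNAs (snoRNAs) were examined among the RNAs recovered with beta-catenin, which acts with transcription factors as an effector of the Wnt pathway, from nuclei of HT-29 and of CaCo-2, both established lines of human colon adenocarcinoma. Members were all entries whose gene name started with SNORD or snoU or was U3 or U8, of any transcript class. The HT-29 table held 32 such entries under 24 names among 9880 transcripts, and the CaCo-2 table held 28 under 16 names among 11943. Together these were 52 different transcripts under 34 names, of 19895 transcripts listed in either table. U8, also called SNORD118, had 0 entries in both tables.

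The 4 groups were the HT-29 beta-catenin RIP, the HT-29 input, the CaCo-2 beta-catenin RIP and the CaCo-2 input. In RNA immunoprecipitation (RIP), an antibody to a protein is added to a lysate and the RNA that comes down with the protein is sequenced. Here the antibody was Bethyl A302-012A and the lysate was made from nuclei, while the inputs received no antibody. All cells were untreated, and each group was 1 library, so no replicate error exists and no test between RIP and input was made. No control antibody of unrelated specificity was analysed here. Levels are FPKM, which relate the fragments of a transcript to its length and to all mapped fragments of the library, as the authors computed them, and p- and q-values are the authors' own from 1 library per side. The tables list only transcripts at least 1.5-fold higher in the RIP, so the direction of every difference was fixed by that selection, and C/D snoRNAs below that fold were not analysed here.

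C/D snoRNAs are short nucleolar RNAs that carry the conserved C and D boxes and bind the proteins fibrillarin, NOP56, NOP58 and SNU13. Most guide the methylation of a ribose in ribosomal RNA or in spliceosomal small nuclear RNA through a stretch complementary to the target. A few act in cleavage and folding of the ribosomal precursor: U3 is the RNA of the small-subunit processome, U14 takes part in forming the small-subunit ribosomal RNA, and U13 binds near the end of that RNA. In humans most guides are cut from introns of host genes, whereas U3, U8 and U13 are transcribed from genes of their own. The human genome also holds many dispersed copies of U3 and U13, and reads of near-identical copies can be assigned to more than 1 of them.

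For entries this short the FPKM alone was a poor guide to abundance. In each library most small-RNA levels fell on whole multiples of a value that depended smoothly on entry length, which is taken here as the worth of 1 fragment. In the HT-29 RIP that value was 21225 FPKM at 65 nucleotides (nt), the level of SNORD78, and 3.14 FPKM at 208 nt, the level of a U3 copy. Of the small-RNA entries of up to 20 multiples, 98.6% of the HT-29 RIP entries and 95.8% of the HT-29 input entries lay within 0.05 of a whole number. The corresponding shares were 100% in the CaCo-2 RIP and 90% in the CaCo-2 input, where only 30 such entries were available. The curve was fitted to the same values, so these shares describe its fit. The fitted curve of the CaCo-2 input turned upward between 157 and 194 nt, and no fragments of a C/D entry were read there. Dividing by it gives the inferred fragments quoted below for entries of up to 240 nt, with exact Poisson 95% intervals that cover counting error only. Because 1 fragment is worth different amounts in a RIP and in its input, a fold of FPKM is not the ratio of the fragments. Numbers above 20 need not be whole and are rounded.

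**Figure D1:**
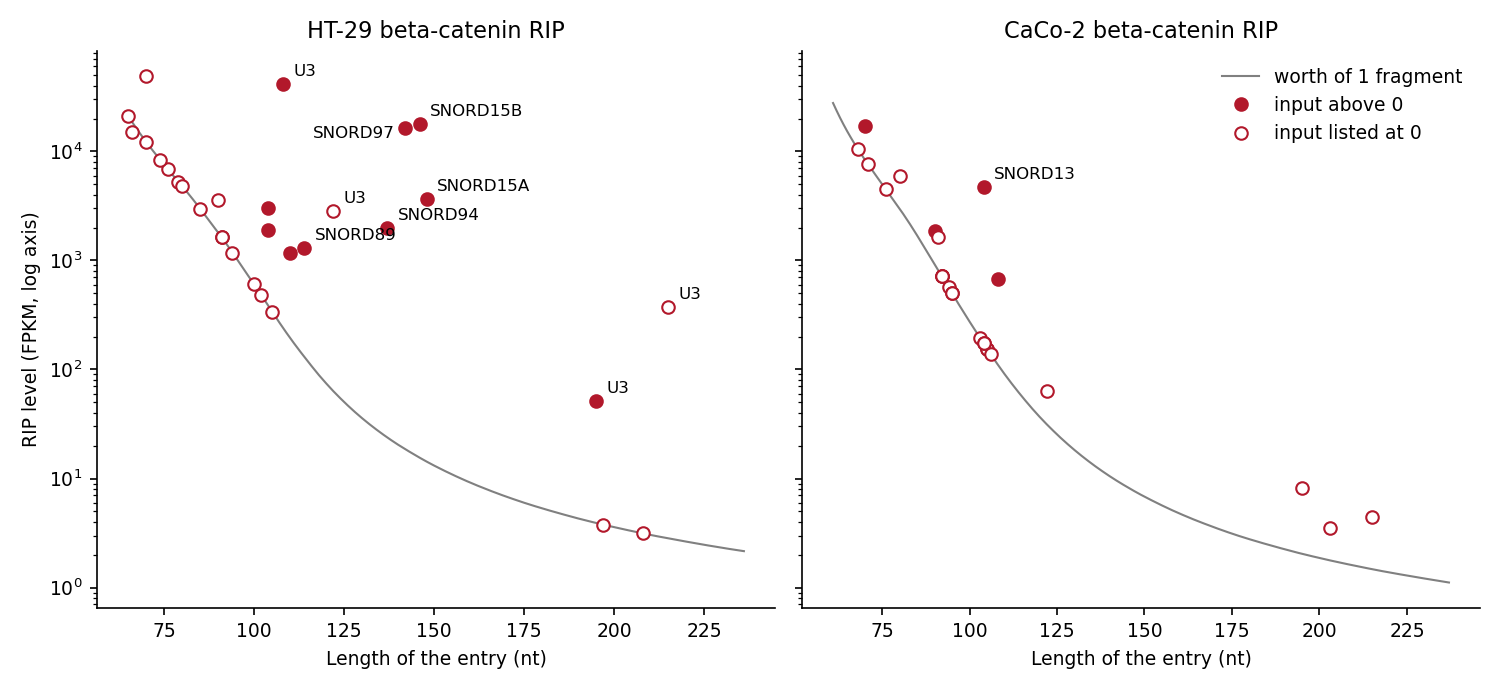
RIP level (FPKM, log axis) of each C/D entry of up to 240 nt against its length in nucleotides, with 1 point per entry, for HT-29 on the left and CaCo-2 on the right. Filled points have an input above 0, open points have an input listed at 0, the grey line is the inferred worth of 1 fragment, and names mark entries of 10 or more fragments. Most open points lie on or near the line, including SNORD78 at 21225 FPKM, while the U3 copies of 108, 122, 195 and 215 nt, SNORD15A, SNORD15B, SNORD94 and SNORD97 lie above it at 10 or more fragments in HT-29.

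The U3 family supplied the largest fold of FPKM and both C/D entries with a q at or below 0.05. In HT-29 it had 9 entries, 7 named U3 and 2 of class lincRNA named SNORD3B-2 and SNORD3D. All 9 passed 2-fold, RIP over input, against 56.0% of all HT-29 transcripts (input above 0: 35.5%). Of the 9, 4 had an input above 0 and 5 had an input listed at 0, where a RIP level of 1 FPKM is enough to pass. The authors' deposited table gave a q at or below 0.05 for 2 of the 32 C/D entries, against 3.08% of the whole table, and both were U3 copies.

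The U3 copy of 215 nt on chromosome 14 (ENST00000384034, hg19 chr14:101611818-101612032, minus strand) reached 373 FPKM in the RIP of HT-29 and was listed at 0 in its input. The RIP level equals about 132 fragments (95% interval 110 to 157). An upper limit of 3 fragments in the input would be 5.71 FPKM, and the RIP level was 65.3-fold above that. This ratio leaves out the counting error of the RIP. The authors' deposited table gave this copy a q of 2.1e-11. The copy of 122 nt on the X chromosome (ENST00000516366, chrX:54091278-54091399, minus strand) reached 2847 FPKM in the RIP of HT-29 and was listed at 0 in its input. This was about 45 fragments in the RIP (32.8 to 60.2), at least 12.5-fold above 3 input fragments, with a q of 2.63e-05 in the authors' deposited table. Both copies formed loci of their own in the authors' annotation, and no listed transcript on the same strand contained them. RefSeq genes around the U3 copies were not looked up.

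The U3 copy with the highest FPKM was 108 nt long (ENST00000516983, chr14:68212084-68212191, minus strand). Its level was 41324 FPKM in the RIP of HT-29 and 309.9 FPKM in its input, a 133-fold difference. The RIP held about 171 fragments but the input only 1, so the counting interval of the fold ran over 23.6 to 5298, with a q of 0.192 in the authors' deposited table. The copy of 195 nt on chromosome 17 (chr17:56709003-56709197, minus strand) was at 50.8 FPKM in the RIP and 19.5 FPKM in the input, about 13 and 7 fragments. Its fold of 2.61 had a counting interval of 0.968 to 7.72, which includes no difference.

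The other 3 U3 copies of HT-29 rested on 1 fragment each and were listed at 0 in the input. They were at 3.14 FPKM (208 nt, chromosome 15), 3.77 FPKM (197 nt, chromosome 6) and 604 FPKM (100 nt, chromosome 2), so widely spaced levels stood for equal numbers of fragments. SNORD3B-2 and SNORD3D belong to the SNORD3 genes on chromosome 17 that encode U3, but the listed transcripts were longer lincRNA entries spanning 688 and 637 nt. SNORD3B-2 (chr17:18966762-18967449) had 12.5 FPKM in the RIP and 5.23 FPKM in the input, 2.39-fold. SNORD3D (chr17:19015313-19015949) was at 5.74 FPKM in the RIP and 2.36 FPKM in the input, 2.43-fold. Fragments could not be read for entries of this length.

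In CaCo-2 the U3 family had 7 entries, 6 of them at least 2-fold higher in the RIP, against 40.8% of all CaCo-2 transcripts that passed the filter of 1 FPKM (input above 0: 19.5%). Of the 7, 5 had an input listed at 0, where a RIP level of 1 FPKM is enough to pass. Of the 2 with an input above 0, the 108 nt copy passed and SNORD3D did not. The counts behind the U3 entries were small. The 108 nt copy had 670 FPKM in the RIP of CaCo-2 and 309.2 FPKM in its input, about 6 and 2 fragments, and its fold of 2.17 had a counting interval of 0.388 to 22.0. The copies of 195 nt, 215 nt, 203 nt and 122 nt were at 8.16, 4.43, 3.55 and 63.1 FPKM in the RIP and listed at 0 in the input. They rested on 4, 3, 2 and 2 RIP fragments.

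None of the 28 C/D entries of CaCo-2 had a q at or below 0.05 in the authors' deposited table, where 2.24% of all transcripts did. The lowest, 0.522, belonged to the 215 nt U3 copy, and its unadjusted p was 0.0478. SNORD3A (chr17:19091329-19092027), a lincRNA entry spanning 699 nt, was at 31.7 FPKM in the RIP and listed at 0 in the input. SNORD3D was at 2.88 FPKM in the RIP and 1.73 FPKM in the input, 1.66-fold and so under the 2-fold mark.

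U13 was represented by its gene SNORD13 (ENST00000459299, chr8:33370993-33371096, plus strand) and by dispersed copies named snoU13. SNORD13 had 4691 FPKM in the RIP of CaCo-2 and 1427 FPKM in its input, about 27 and 6 fragments. Its 3.29-fold difference was the highest of the CaCo-2 C/D entries with an input above 0. Its counting interval, 1.33 to 9.74, was the only one of the 4 that could be computed in CaCo-2 to lie above 1. Entries were selected for a higher RIP on these same levels, and the interval does not allow for that selection. It is therefore no test against equal levels. The authors' deposited table gave SNORD13 a q of 0.769 in CaCo-2. In HT-29 SNORD13 was at 1909 FPKM in the RIP and 781 FPKM in the input, a 2.44-fold difference with a counting interval of 0.40 to 25.7. The RIP level equalled 5 fragments, while the input level was 1.66 times the worth of 1 fragment and so did not fall on a whole number. At this length that worth was set by the input level of SNORD9, so the 1.66 and the interval depend on it.

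The snoU13 copies numbered 9 in CaCo-2 and 3 in HT-29, and all of them were listed at 0 in the input. Each rested on 1 RIP fragment. In CaCo-2 they ranged from 139 FPKM at 106 nt to 4518 FPKM at 76 nt, with the copies of 92 and 95 nt at 724 and 501 FPKM, and in HT-29 from 340 FPKM at 105 nt to 1180 FPKM at 94 nt. The 3 HT-29 copies had the same p in the authors' deposited table, 0.14001, as the 208 nt U3 copy. None of these copies was listed in both lines.

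Guides of ribosomal RNA methylation made up 14 of the 32 HT-29 entries, 10 for the large subunit and 4 for the small subunit. SNORD15B (ENST00000384714, chr11:75115465-75115610, plus strand), a large-subunit guide in an intron of the ribosomal protein gene RPS3, was the most sequenced C/D RNA of the HT-29 RIP. It was at 17835 FPKM in the RIP and 7124 FPKM in the input, about 1150 fragments (1084 to 1218) and 497 fragments (454 to 543). Its fold of 2.50 had a narrow counting interval, 2.25 to 2.79, and a q of 0.67 in the authors' deposited table.

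SNORD15A (ENST00000384214, chr11:75111435-75111582, plus strand) lies in another intron of RPS3 and is a paralog of SNORD15B. It was at 3654 FPKM in the RIP and 95.9 FPKM in the input. These were about 257 fragments in the RIP and 7.41 times the worth of 1 fragment in the input, which is not a whole number and was rounded to 7. The fold of FPKM was 38.1, with a counting interval of 18.2 to 95.7 that did not overlap that of SNORD15B. The authors' deposited table nevertheless gave it a q of 0.9998. The 3 listed RPS3 transcripts that span both snoRNAs differed less, for example 279 FPKM in the RIP and 128 FPKM in the input, 2.18-fold. How reads were shared between the pair of paralogs was not analysed here.

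The other 12 ribosomal guides of HT-29 were listed at 0 in the input, and 10 of them rested on 1 RIP fragment. SNORD104, a large-subunit guide (chr17:62223443-62223512), had the highest level of all C/D entries in either line, 48988 FPKM, and was the 6th highest of the HT-29 table. It stood for 4 fragments (1.09 to 10.2). SNORD78, hosted by GAS5, ranked 10th in that table at 21225 FPKM. It is read as 1 fragment, but as the shortest small-RNA entry it sets the end of the curve itself, so this reading could not be checked. SNORD99 in SNHG12 was at 8298 FPKM and SNORD36C in RPL7A at 15128 FPKM. SNORD36C lay at 0.803 of the inferred worth of 1 fragment, the lowest multiple of any member. SNORD12, in the non-coding host ZFAS1, was at 3607 FPKM from 2 fragments.

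The small-subunit guides of HT-29 were SNORD100 at 6886 FPKM, SNORD105B at 5262 FPKM, SNORD20 in the nucleolin gene NCL at 4811 FPKM, and SNORD14E at 2988 FPKM. SNORD14E is a copy of U14 in the heat shock gene HSPA8. Each of the 4 rested on 1 RIP fragment. The large-subunit guides SNORD12B and SNORD88A, of equal length, were at 1629 and 1628 FPKM, again 1 fragment each.

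In CaCo-2 the ribosomal guides numbered 6. SNORD104 was at 16934 FPKM in the RIP and 6639 FPKM in the input, 2 fragments and 1, and the counting interval of its 2.55-fold difference spanned 0.133 to 150.5. SNORD12 was at 1848 FPKM in the RIP and 990 FPKM in the input, 2 fragments and 1 again, 1.87-fold with an interval of 0.0972 to 110.2. The other 4 were listed at 0 in the input. Of these, SNORD63 in HSPA9 was at 10599 FPKM, SNORD111 at 566 FPKM and SNORD91B at 501 FPKM from 1 RIP fragment each, and SNORD14A, the U14 copy in RPS13, was at 1636 FPKM from 2. The intervals of SNORD104 and SNORD12 thus included equal levels in RIP and input, and for the other 4 no interval was computed.

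The guides of spliceosomal RNA had input above 0 in HT-29 throughout. SNORD94, a guide of U6 (ENST00000386037, chr2:86362993-86363129, plus strand), had 1974 FPKM in the RIP of HT-29 and 144 FPKM in its input. About 83 and 6 fragments lay behind these levels, and the fold of 13.7 had a counting interval of 6.05 to 38.5. The authors' deposited table gave it a q of 0.175, and its p of 0.00735 was the third lowest of the HT-29 C/D entries.

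SNORD8 and SNORD9 also guide U6 and sit in introns of CHD8. SNORD9 was at 3055 FPKM in the RIP and 472 FPKM in the input, about 8 fragments and 1, a 6.47-fold difference with an interval of 0.868 to 287. That input level itself set the worth of 1 fragment at 104 nt, a length that SNORD13 shares. Read on a curve fitted without SNORD9, the level equalled 0.604 of a fragment, so the reading of 1 is uncertain. SNORD8 was at 1168 FPKM in the RIP and 502 FPKM in the input, 6 and 2 fragments, 2.33-fold with an interval of 0.416 to 23.6. In CaCo-2 the only such guide listed was snoU2_19, a guide of U2, at 5970 FPKM from 2 RIP fragments and listed at 0 in the input.

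SNORD97 and SNORD89 were the remaining HT-29 members. SNORD97 (ENST00000459187, chr11:10823014-10823155, minus strand), in the translation factor gene EIF4G2, was at 16369 FPKM in the RIP and 3666 FPKM in the input. With about 882 and 206 fragments, its fold of 4.47 was the most precise after that of SNORD15B (3.83 to 5.22). SNORD89, in an intron of RNF149, was at 1299 FPKM in the RIP and 498 FPKM in the input, 10 and 3 fragments, 2.61-fold with an interval of 0.671 to 14.7.

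The imprinted snoRNA cluster on chromosome 15q11, known for its high expression in neurons, was represented in CaCo-2 alone, and the difference between the lines was not tested. SNORD108 was at 7608 FPKM in the CaCo-2 RIP, and SNORD116-14 and SNORD116-16, near-identical copies of 1 repeat, were both at 724 FPKM. All 3 rested on 1 RIP fragment, were listed at 0 in the input and had the same p, 0.408, in the authors' deposited table. SNORD109A, as a sense_intronic entry spanning 511 nt, was at 3.78 FPKM in the RIP and 2.08 FPKM in the input, 1.82-fold.

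**Figure D2:**
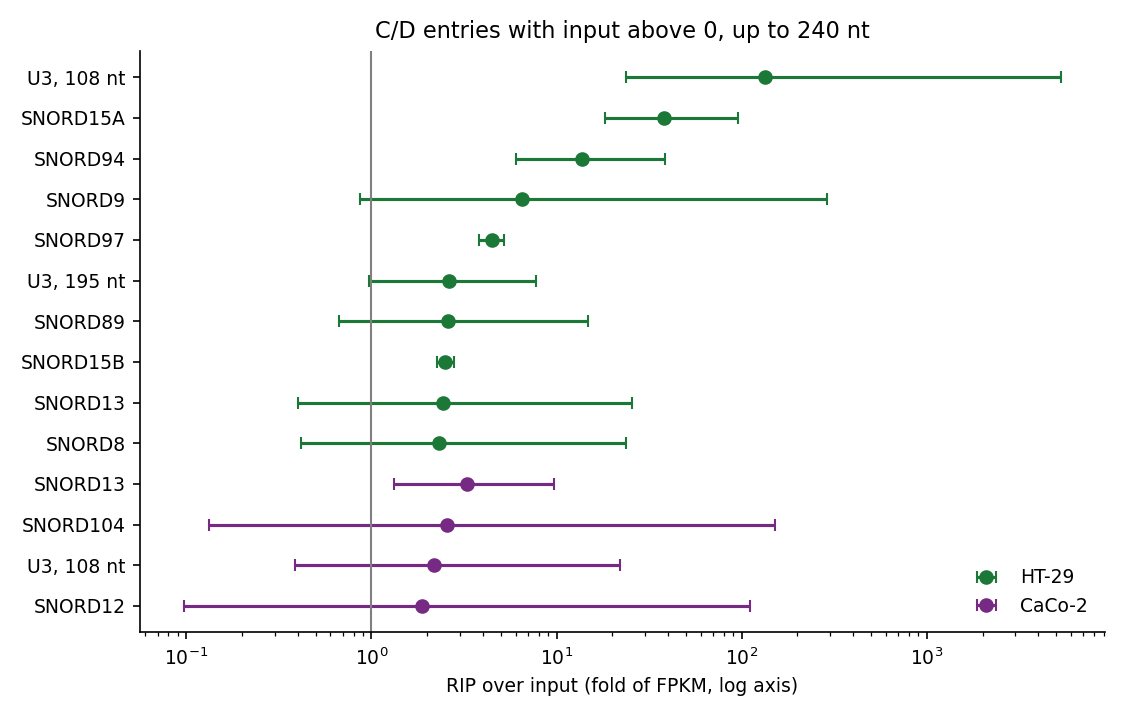
Fold of FPKM, RIP over input (log axis), for the 14 C/D entries of up to 240 nt with an input above 0, HT-29 in green above and CaCo-2 in purple below. Bars are 95% counting intervals from the inferred fragments and carry no replicate error, and the vertical line marks equal levels. The intervals of U3 of 108 nt, SNORD15A, SNORD94, SNORD97 and SNORD15B in HT-29 and of SNORD13 in CaCo-2 lie above 1. The other 8 include 1. Entries were selected for a higher RIP on these same levels, and the intervals do not allow for that selection. An interval above 1 is therefore no test against equal levels.

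Across all C/D entries, 32 of the 32 from HT-29 and 25 of the 28 from CaCo-2 passed 2-fold, RIP over input. Of all transcripts tested, 56.0% and 40.8% did. High shares were not particular to C/D names. Entries named SNORA or SCARNA passed in 93.9% and 73.9%, and small-RNA entries outside C/D in 79.9% and 71.7%. Most C/D entries that passed had an input listed at 0, where any listed RIP level passes 2-fold once it reaches the pseudocount of 1 FPKM. The share of C/D entries with an input at 0 was 62.5% in HT-29 (20 of 32), against 31.8% of the whole table. In the same table it was 50.2% for small-RNA entries outside C/D and 30.3% for entries named SNORA or SCARNA. In CaCo-2 the C/D share was 78.6% (22 of 28), against 29.0% of the whole table. There it was 60.6% for small-RNA entries outside C/D and 43.5% for entries named SNORA or SCARNA. These differences were not tested.

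With the entries of input 0 set apart, 12 of 12 HT-29 entries and 3 of 6 CaCo-2 entries were past 2-fold, against 35.5% and 19.5% of all transcripts with an input above 0. These shares include the pseudocount, which lowers the shares of all transcripts more than those of the members. By plain folds most of all such transcripts pass 2-fold, since their medians, given next, exceed 2. The median fold was 2.61 in HT-29 (range 2.33 to 133), beside 2.46 for all HT-29 transcripts with an input above 0. In CaCo-2 it was 2.02 (1.66 to 3.29), beside 2.21 for all such transcripts. With the pseudocount, the median log2 ratio of RIP over input was 1.36 for HT-29 members and 1.01 for CaCo-2 members, beside 0.83 and 0.65 for all such transcripts. The plain and the pseudocount scales thus place the CaCo-2 members on opposite sides of the table's median: the pseudocount shrinks the ratios of low transcripts more.

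The fragments behind the C/D entries were few and unevenly spread. Of the 20 HT-29 entries with input at 0, 17 rested on 1 or 2 RIP fragments, and of the 21 such CaCo-2 entries that could be read, 19 did. For the small-RNA entries under other names, SNORA and SCARNA included, 73 of 91 HT-29 entries (80.2%) and 115 of 121 entries (95%) in CaCo-2 with input at 0 did so. Over the 30 HT-29 entries of up to 240 nt the RIP fragments summed to 2784, of which SNORD15B, SNORD97 and SNORD15A held 82.2%. Over the 25 CaCo-2 entries they summed to 67, with 27 in SNORD13. In HT-29, 9 entries had 10 or more fragments, and in CaCo-2 SNORD13 alone did.

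**Figure D3:**
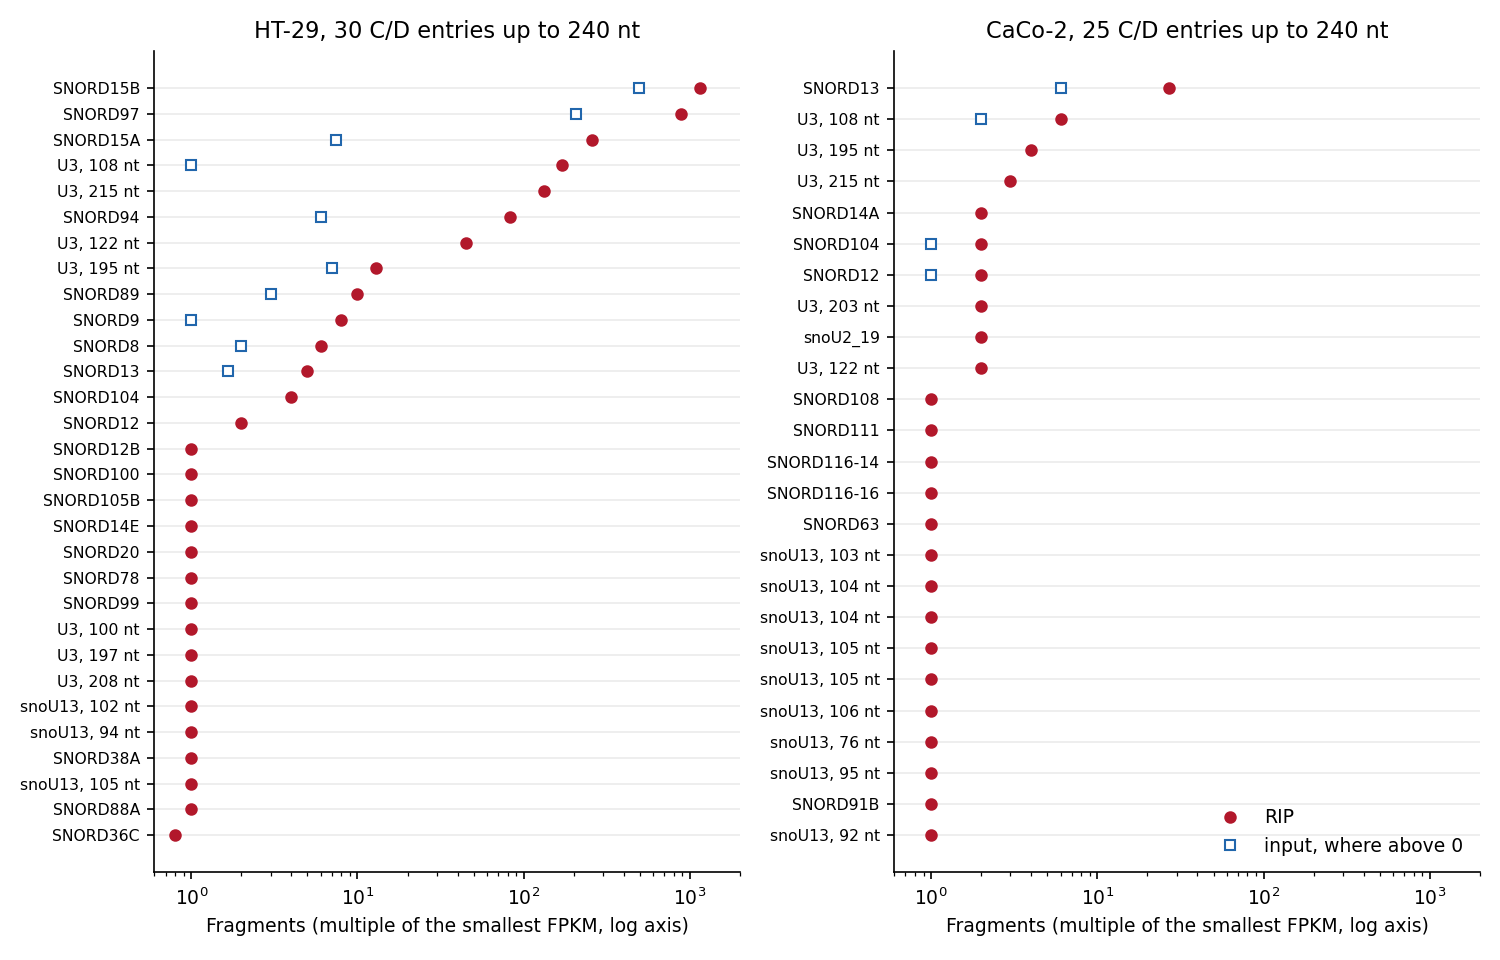
Inferred fragments (log axis) behind each C/D entry of up to 240 nt in the RIP (red circles) and, where above 0, in the input (blue squares), HT-29 on the left and CaCo-2 on the right, sorted by the RIP. SNORD15B, SNORD97, SNORD15A and the U3 copies of 108 and 215 nt exceed 100 RIP fragments in HT-29, while 21 of 25 CaCo-2 entries sit at 1 or 2.

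The H/ACA snoRNAs and scaRNAs, which guide pseudouridylation or act in Cajal bodies, offered the closest comparison. They had 66 entries in HT-29, 46 of them with an input above 0 and a median fold of 6.54, beside 2.61 for the C/D entries. In CaCo-2 they had 23 entries, 13 with an input above 0 and a median fold of 2.59, beside 2.02. For C/D entries of class snoRNA alone the median folds were 3.54 in HT-29 and 2.36 in CaCo-2. The H/ACA and scaRNA entries were not restricted by class. Entries on 1 or 2 RIP fragments were 12 of 61 H/ACA and scaRNA entries from HT-29 and 10 of 22 from CaCo-2, beside 17 of 30 and 21 of 25 C/D entries. The H/ACA and scaRNA entries were set apart by the names SNORA and SCARNA alone, and whether any of them carries C and D boxes was not checked. The difference between them and the C/D entries was not tested.

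Both lines listed 8 C/D transcripts, which is 25% of the 32 HT-29 members and 28.6% of the 28 CaCo-2 members. Of all listed transcripts, 19.5% of the HT-29 table and 16.1% of the CaCo-2 table were in both, and of H/ACA and scaRNA entries 24.2% and 69.6%. The shared C/D transcripts were SNORD104, SNORD12, SNORD13, SNORD3D and the U3 copies of 215, 195, 122 and 108 nt. The 4 U3 copies had about 132, 13, 45 and 171 RIP fragments in HT-29. In CaCo-2 the same copies had 3, 4, 2 and 6. SNORD13 ran the other way, with 5 RIP fragments in HT-29 and 27 in CaCo-2. The total depth of the libraries is unknown, so these numbers are not comparable as levels between the lines.

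**Figure D4:**
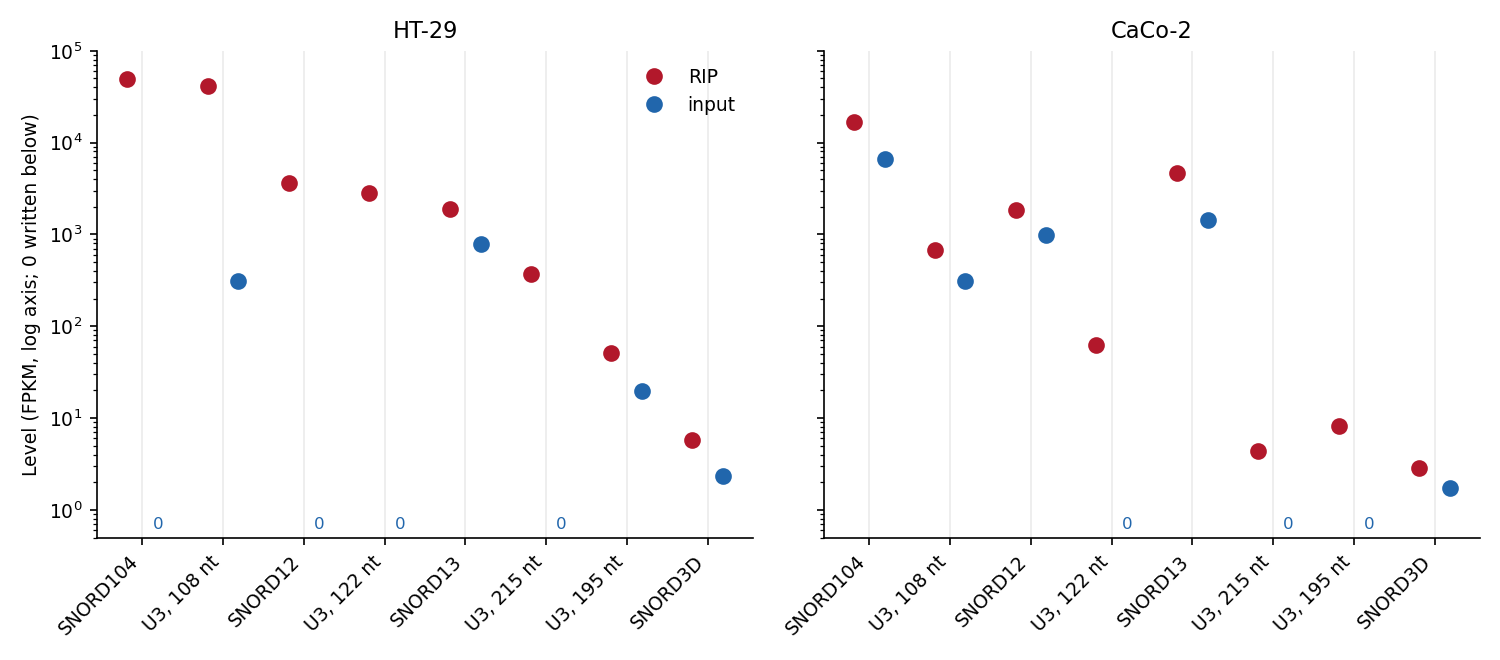
Level (FPKM, log axis) of the 8 C/D transcripts listed in both lines, with RIP in red and input in blue, HT-29 on the left and CaCo-2 on the right, and an input listed at 0 written as 0. Each point is 1 library. The RIP point is above the input in every pair, as the selection of the tables requires, and among pairs with an input above 0 the fold is largest for the U3 copy of 108 nt, at 41324 FPKM in the RIP and 309.9 FPKM in the input of HT-29.

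The members also differed in the listed transcripts around them. Only transcripts that passed the selection were listed, so a host gene can be missing from these counts. In HT-29, 16 of the 22 entries named SNORD lay inside a listed transcript on the same strand, as did 3 of 13 in CaCo-2. SNORD12, for example, lies in ZFAS1 but was inside a listed transcript in HT-29 alone. None of the 10 HT-29 and 14 CaCo-2 copies named U3 or snoU13 lay inside a listed transcript on the same strand. This does not show that the copies lack host transcripts. In the authors' annotation only 6 of the 10 HT-29 copies and 3 of the 14 CaCo-2 copies formed loci of their own. The others lay in larger loci, among them the U3 copy with the highest FPKM in HT-29. In HT-29 the enclosing transcripts were 23 transcripts of 13 genes, and their folds, where input was above 0, ran from 1.61 to 8.72. They included ZFAS1 around SNORD12 and SNORD12B at 15.9 FPKM in the RIP and 5.81 FPKM in the input, and NCL around SNORD20 at 5.85 FPKM in the RIP and 1.03 FPKM in the input. CHD8 around SNORD8 and SNORD9 was at 3.90 FPKM in the RIP and 1.12 FPKM in the input. EIF4G2 around SNORD97 was at 20.5 FPKM in the RIP and 9.97 FPKM in the input. Whether reads of unspliced host RNA enter the snoRNA levels was not tested.

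Messages of the proteins that work with C/D snoRNAs were listed in part. Of the core proteins, NOP56 and NOP58 were listed in HT-29, with 5 of 11 transcripts past 2-fold (all transcripts: 56.0%). In CaCo-2 NOP56, NOP58 and fibrillarin (FBL) were listed, with 4 of the 7 transcripts that passed the filter of 1 FPKM past 2-fold (all transcripts: 40.8%). The protein-coding NOP56 transcripts listed were at 5.26 FPKM in the RIP and 1.16 FPKM in the input of HT-29, and at 4.63 FPKM in the RIP and 1.08 FPKM in the input of CaCo-2. Of the 31 genes of the U3 and small-subunit processome list, 17 were listed in each line. Past 2-fold were 14 of 26 transcripts in the HT-29 table (53.8%) and 8 of 23 that passed the filter in the CaCo-2 table (34.8%). The C/D assembly factors, such as PIH1D1, RPAP3 and RUVBL1, had 8 of 14 transcripts past 2-fold in HT-29 (57.1%) and 7 of the 17 passing the filter in CaCo-2 (41.2%). Shares of the processome and assembly lists thus lay near those of all transcripts, 56.0% for HT-29 and 40.8% for CaCo-2. For the nucleolar proteins the counts were 8 of 16 HT-29 transcripts (50%) and 9 of 15 CaCo-2 transcripts (60%). Of these 4 lists, 1 transcript had a q at or below 0.05 in the authors' deposited tables. It was a protein-coding transcript of POLR1B, a subunit of RNA polymerase I, at 2.91 FPKM in the RIP and 0.979 FPKM in the input of CaCo-2, with a q of 0.0442.

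Where input was above 0, the median log2 ratios of RIP over input in HT-29 were 0.85 for the core proteins, 0.76 for the processome and 0.82 for the assembly factors, beside 0.83 for all transcripts. In CaCo-2 they were 1.01, 0.59 and 0.75, beside 0.65. Colon epithelial markers such as KRT18 and LGALS4 were listed for 7 of 11 genes by the HT-29 table and 5 of 11 by the CaCo-2 table, summing to 190 FPKM in the RIP and 76.0 FPKM in the input of HT-29 and to 87.7 FPKM in the RIP and 38.6 FPKM in the input of CaCo-2. Of 7 markers of other cell types, none was listed in HT-29. In CaCo-2 the albumin gene ALB was listed, its protein-coding transcript at 10.7 FPKM in the RIP and 0.0983 FPKM in the input.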

How the data were processed

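Nuclear RNA of HT-29 and CaCo-2 was sequenced as 1 RIP and 1 input library per line. Per the submitters' processing notes, CASAVA 1.4, Bowtie2, TopHat2 2.0.8, Cufflinks and Cuffdiff were used with hg19; no source used here gives the annotation release or strandedness. The authors deposited FPKM per Ensembl transcript, with p-values and q-values from Cuffdiff. All 9880 and 11943 rows had the status OK, and 0 had a RIP below the input. Total depth is unknown. Columns of per-sample values left unmapped numbered 0; each input column was assigned to the line of its table.

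The members, gene lists and tests were chosen with earlier results of these data known. Ratios were log2 of RIP plus 1 over input plus 1 FPKM, for transcripts of at least 1 FPKM in at least 1 library, and 2-fold was the mark for a count. Where input was listed at 0 no fold is given. For 2 U3 copies the RIP level is set against the level of 3 input fragments, without the counting error of the RIP.

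The worth of 1 fragment by length was fitted per library to all small-RNA entries of 60 to 240 nt, as a smooth lower envelope, from several starting points, keeping the one that gave most whole multiples. This procedure was settled after seeing the data, on the values whose wholeness is then reported, and an entry alone at its length can set its own value. Refitted without the entry itself, 29 of 29 HT-29 RIP, 25 of 25 CaCo-2 RIP, 10 of 10 HT-29 input and 4 of 4 CaCo-2 input members kept their rounded number, though SNORD9 in the HT-29 input moved by 39.6%. The CaCo-2 input curve rests on 22 lengths and is the least certain. Intervals of a fold are exact conditional intervals of 2 counts on rounded fragments, scaled by the worth of a fragment. These intervals do not allow for the selection of listed entries for a higher RIP. The method was tested on simulated data, where it recovered the fragments of the CaCo-2 input clearly less well than those of the other libraries.

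Named entries were all U3, SNORD3, SNORD13 and SNORD14 entries, all with an input above 0, the 10 highest of input 0 per line, those in both tables, those with q at or below 0.05, and the extreme multiples. Other entries named were chosen after their values were seen. The level of 1 entry that this rule names is not reported here. Coordinates are hg19, written from 1. Symbols matched RefSeq (GRCh38.p14, used for names and neighbouring genes) for 22 of the 24 HT-29 names and 13 of the 16 CaCo-2 names. The planned search for C and D box letters was not run, because no member sequence was at hand. Analyses used Python 3.11.15, pandas 2.3.3, numpy 2.4.6, scipy 1.17.1 and matplotlib 3.10.9.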

Additional observations from a re-analysis of the deposited data

How the results depend on the processing

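No paired analysis was possible because the RIP and input of a line share only 1 replicate number. A fit of RIP against input over both lines with the line as a block was not run, since the selection of the tables fixes the sign of every ratio. With 1 library per group none was left out. In HT-29 the count past 2-fold, 32, became 12 with at least 1 FPKM in both libraries or with input 0 left out, and 13 with 3 or more RIP fragments, an alternative chosen after seeing the data. In CaCo-2 the count of 25 became 3, 3 and 4 under the same settings, and 13 with 1 entry per gene name. These settings test fewer entries by construction. The other settings (pseudocounts of 0.1 and 5 FPKM, no filter, class snoRNA and, in HT-29, 1 entry per gene name) kept the HT-29 count between 24 and 32 and the CaCo-2 count between 23 and 25. The median log2 ratio of RIP over input in HT-29, 1.36, became 1.38 and 1.35 with pseudocounts of 0.1 and 5 FPKM, 1.77 with class snoRNA alone, 1.38 with 1 entry per gene name and 1.77 with 3 or more RIP fragments. In CaCo-2 the median of 1.01 became 1.001 with a pseudocount of 5 FPKM, 1.23 with class snoRNA alone and 1.42 with 3 or more RIP fragments, the last over 2 entries. No setting turned a direction, which the selection of the tables fixes. Most entries rest on 1 or 2 fragments, and total depth is unknown.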
